A study of Mus musculus with 4 samples.

Results

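The genes described here encode the proteins of the cytosolic ribosome, and were followed in mouse embryonic fibroblasts with and without mesenchymal stem cells (MSCs). Members were all genes of the expression table named Rpl or Rps plus a number, with an optional letter a, l, x or y and an optional further digit, together with Rplp0, Rplp1, Rplp2 and Rpsa. Pseudogenes and the Rps6k kinases were left out. The rule found 83 of 21839 genes, 51 of the large and 32 of the small subunit. Of these, 80 had an FPKM (reads scaled to gene length and to the gene reads of the library) of at least 1 in any library and are called measured. Rpl10l, Rpl3l and Rpl24 did not. Fau and Rack1, which also encode ribosomal proteins, do not match the rule and are given separately.

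The study asked which cytokines fibroblasts release near MSCs. Wild-type fibroblasts from embryos of 13.5 days (MEFs) sat on a permeable insert, and RNA was taken from them after 48 h. The libraries were cocultured MEFs (Co-con), cocultured MEFs with the NF-κB inhibitor QNZ (Co-QNZ), MEFs alone with QNZ, and MEFs alone (CON). Without replicates (1 library for each condition) no p-value is given, and coculture cannot be told apart from any other difference between libraries. The MSCs were cultured from mouse bone marrow, and no source used here gives the dose of QNZ. Genes were called higher or lower, and are said to be counted, from a difference of 1 in log2(FPKM + 1) upwards. Intervals on ratios of reads are exact binomial at 95% and cover counting error only.

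Ribosomal proteins are made in nearly equal numbers, because each ribosome holds 1 copy of most of them, and their mRNAs are among the most abundant of a growing cell. In mammals these mRNAs start with a C followed by a run of pyrimidines, the 5′ terminal oligopyrimidine (TOP) tract, through which mTORC1 and the RNA-binding protein LARP1 control their translation. Their transcription is known to follow growth, with MYC and ETS family factors among its regulators.

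The bases around the annotated transcription start are shown for the 4 members with the largest and the 4 with the smallest coculture differences, to show how far the sequence known for the family is shared at both ends of the range. Members with no start or several starts in the table, at a maximum FPKM below 5 or on a chromosome left out of sequence display were passed over. Each line runs from 30 bases before the start to 30 bases from it onwards, in RefSeq on GRCm38.p6 (the mm10 build). Capitals mark each C followed by at least 4 pyrimidines. The first 4 are the larger differences.
Rps2: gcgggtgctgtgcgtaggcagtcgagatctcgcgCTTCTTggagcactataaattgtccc
Rpl41: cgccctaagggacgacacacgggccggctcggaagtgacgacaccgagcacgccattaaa
Rps3: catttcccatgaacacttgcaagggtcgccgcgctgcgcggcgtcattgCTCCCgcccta
Rpl18: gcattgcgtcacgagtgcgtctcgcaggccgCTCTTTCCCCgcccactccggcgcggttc
Rpl37: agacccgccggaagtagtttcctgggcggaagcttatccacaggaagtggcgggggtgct
Rpl22l1: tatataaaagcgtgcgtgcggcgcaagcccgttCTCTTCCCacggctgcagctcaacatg
Rpl23: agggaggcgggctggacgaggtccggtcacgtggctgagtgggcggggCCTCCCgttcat
Rpl4: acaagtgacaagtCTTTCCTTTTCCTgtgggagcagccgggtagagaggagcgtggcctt
The windows are chr17:24720033-24720092 on the plus strand for Rps2, chr10:128549139-128549198 on the minus strand for Rpl41, chr7:99483680-99483739 on the minus strand for Rps3 and chr7:45718041-45718100 on the plus strand for Rpl18. Those of the smaller differences are chr15:5116583-5116642 on the plus strand for Rpl37, chr3:28805478-28805537 on the plus strand for Rpl22l1, chr11:97782410-97782469 on the minus strand for Rpl23 and chr9:64173357-64173416 on the plus strand for Rpl4.

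A pyrimidine tract lay in the window of 6 of these 8 genes, 3 at either end of the range. Promoters were listed for 63 of the 83 members, with 75 starts. A tract lay in the window of 62 of these 75 starts (82.7%), against 19400 of 32851 starts of all genes (59.1%). The letters CCGGAAG, a core that ETS factors bind, lay on either strand of the 300 bases from 250 before the start in 27 of the 75 (36.0%), against 8.86% of all. AAGATGGC, a core of YY1 sites, was found in 10.7%, against 2.75%, and TATAAA in 9.33%, against 13.6%. The 51 measured members with a tract in a window had a median coculture difference of -1.71 on the log2(FPKM + 1) scale, and the 9 without one had -1.30. The ranges of these sets overlapped, from -2.53 to -0.32 with a tract and from -2.34 to -1.05 without. These matches describe letters near annotated starts and are not evidence of use.

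Reads assigned to genes totalled between 13153696 and 15778488 per library. Of the 10 fibroblast markers, 9 were measured, and S100a4 had at most 0.115. Their summed FPKM was 3669 in Co-con, against 5455 in CON, and 2430 in Co-QNZ, against 2805 with QNZ alone. Without QNZ 4 of the 9 were counted as higher and 1, Acta2, as lower. The summed FPKM of the 6 macrophage markers was 12.6 in Co-con, against 3.62 in CON, and 7.36 in Co-QNZ, against 5.92 with QNZ alone. Only Cd68 and Lyz2 of this list were measured, and both were counted as higher without QNZ, with differences of 1.32 and 1.37. In the pair with QNZ neither was counted, with 0.47 and -0.34. Ptprc had no more than 0.0184. The 4 endothelial markers together had at most 0.397, and the 4 epithelial markers between 3.08 and 6.76. Markers of bone marrow stroma summed to 826 in Co-con, against 88.0 in CON, and to 1052 in Co-QNZ, against 155 with QNZ alone. Of these 6 markers 4 were measured, and all 4 were counted as higher in both pairs. Among all measured genes 24.0% were higher without QNZ and 14.0% with it. Grem1 made up most of the sum. Mitochondrially encoded genes took 0.738% of reads in Co-con, against 0.291% in CON, and 1.49% in Co-QNZ, against 0.580% with QNZ alone. The part of these differences in the results on ribosomal protein genes was not tested. In RNA from whole cultures, fewer cells of a type and less RNA per cell cannot be told apart.

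Ribosomal protein mRNAs took up a far smaller part of the library in coculture. The 83 genes held 3.45% of all gene reads in Co-con (95% interval 3.44 to 3.46) and 11.4% in CON (11.3 to 11.4). This was 513656 reads in Co-con, against 1750645 in CON, a ratio of 0.304 (0.303 to 0.305). With QNZ the share was 3.10% in coculture, against 9.85% alone, a ratio of 0.315 (0.314 to 0.316). Both subunits took part. Large-subunit genes held 1.98% of reads in Co-con, against 6.04% in CON, and small-subunit genes held 1.48%, against 5.33%. As a share of summed TPM, which weights genes by length, the family held 8.20% in Co-con, against 19.3% in CON, a ratio of 0.425. Median FPKM over the 80 measured members was 200 in Co-con, against 615 in CON, and 179 in Co-QNZ, against 547 with QNZ alone. Among the 100 genes of highest FPKM in each library, 24 were members in Co-con and 45 in CON.

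**Figure D1:**
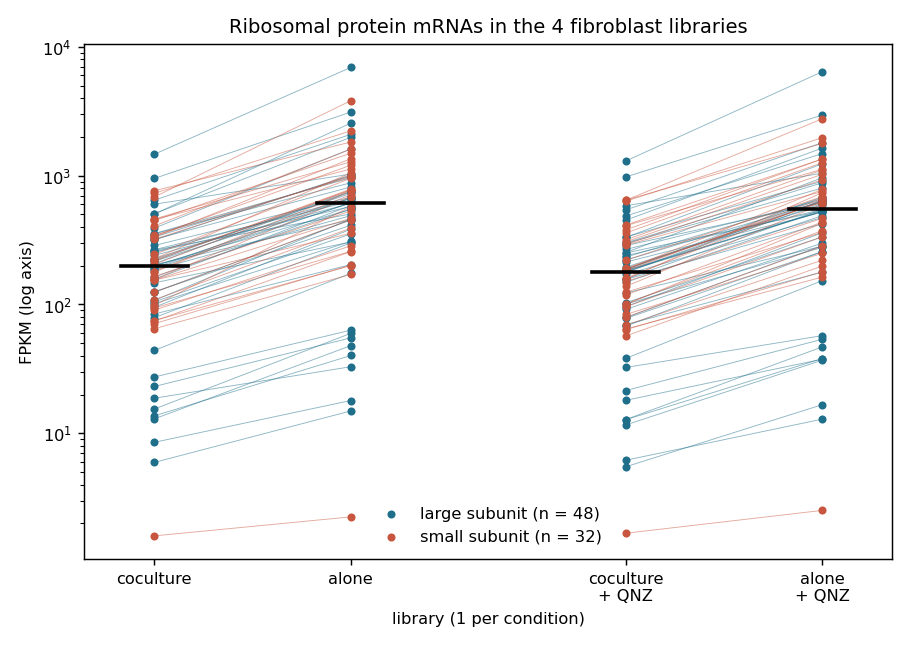
FPKM (log axis) of the 80 measured ribosomal protein genes in the 4 libraries, with 1 point per gene, thin lines joining each gene between the libraries with and without MSCs, and a black bar at the median. Lines of both subunits go the same way in both pairs, with medians of 200 and 615 without QNZ and of 179 and 547 with QNZ.

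In coculture without QNZ, 75 of the 80 measured members were counted as lower and none as higher, where 11.0% of all 11335 measured genes were lower and 24.0% higher. The median difference over the members was -1.68, against 0.35 over all measured genes, with a middle range from -1.87 to -1.36. In the pair with QNZ, 76 were lower and none was higher, and the median was -1.65, where 8.70% of all measured genes were lower and 14.0% higher and the median was 0.18. All 80 members had a difference below 0 in both pairs, and the counting interval of the read ratio lay below 1 for 79 of them without QNZ and for 80 with it. Without QNZ, 3 members changed sign under another scaling. Rps10 had 0.024 as TPM, Rpl23a had 0.21 with the trend with gene length removed and 0.22 with length and GC content removed, and Rps29 had 0.022 with length and GC content removed. As TPM the median of all measured genes was 0.90 in place of 0.35, and the members' median relative to it was -2.06, against -2.03 as deposited. The spread over members (SD) was 0.39 without QNZ and 0.33 with it. Median differences were -1.75 for 32 small-subunit and -1.63 for 48 large-subunit genes without QNZ, and -1.73 and -1.55 with it. These pairs share no library. Across the 80 members their differences had a rank correlation of 0.85, a description over genes, which are not independent replicates.

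**Figure D2:**
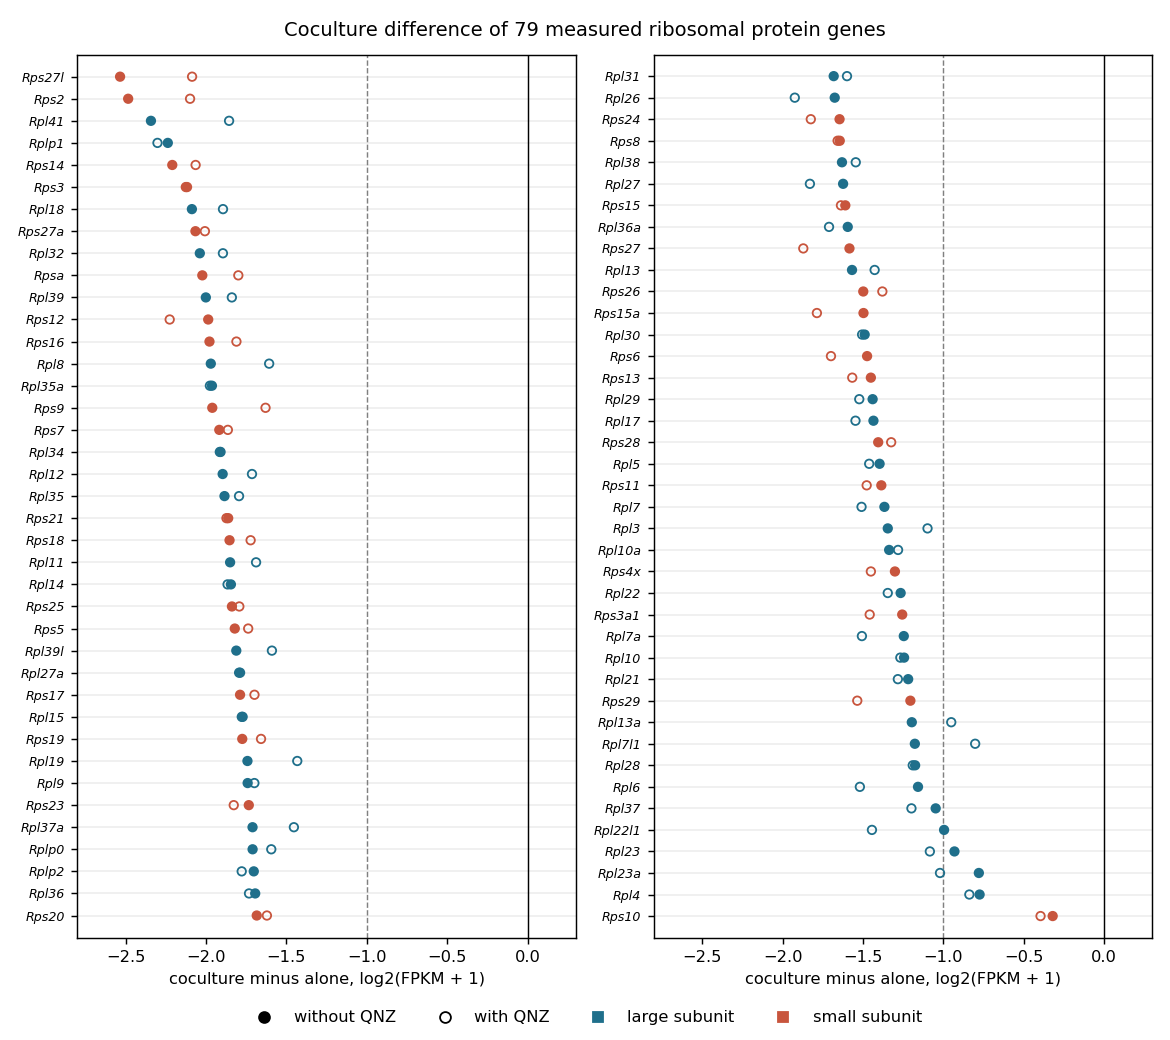
Coculture difference in log2(FPKM + 1), with MSCs minus without, for 79 of the 80 measured members (1 gene is not drawn), with filled points without QNZ and open points with QNZ. All points lie below 0 and, without QNZ, 5 lie right of the dashed line at -1, namely Rpl22l1, Rpl23, Rpl23a, Rpl4 and Rps10.

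Among small-subunit proteins the largest differences were those of Rps27l and Rps2. Rps27l, a paralogue of Rps27 whose gene is a target of p53 in mouse and human, had an FPKM of 98.5 in Co-con, against 576 in CON, and 99.9 in Co-QNZ, against 427 with QNZ alone. Its share of reads in Co-con was 0.171 times that in CON (0.161 to 0.182). The cocultured libraries were alike and both libraries without MSCs were far above them. The gene (ENSMUSG00000036781) is at 66946086 to 66949516 on chromosome 9 (mm10, plus strand). Rps27, the main form, had 155 in Co-con, against 467 in CON, and 119 in Co-QNZ, against 436 with QNZ alone. The log2 difference of Rps27 was -1.58 without QNZ, smaller than the -2.53 of its paralogue. With QNZ the differences were -1.87 and -2.09, so the gap between these genes was narrower there.

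Rps2, which lies near the path by which mRNA enters the ribosome, had an FPKM of 682 in Co-con, against 3822 in CON, and 644 in Co-QNZ, against 2764 with QNZ alone. It was the member with the most reads in CON, and a gene on the other strand overlaps it. Rps3, at the mRNA entry site, had 157 in Co-con, against 688 in CON, and 138 in Co-QNZ, against 603 with QNZ alone. The differences of Rps3 in the pairs were close, at -2.13 without QNZ and -2.12 with it. Rps14, whose loss on one allele underlies the anaemia of human 5q- syndrome, had 226 in Co-con, against 1051 in CON, and 186 in Co-QNZ, against 783 with QNZ alone. Rps27a, which is made as a fusion of ubiquitin with a ribosomal protein, had 180 in Co-con, against 758 in CON, and 160 in Co-QNZ, against 648 with QNZ alone. Both genes were about as far below their level without MSCs in either pair, with differences of -2.21 and -2.07 without QNZ and -2.06 and -2.01 with it.

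Rpsa, also known as a laminin receptor precursor, had an FPKM of 332 in Co-con, against 1353 in CON, and 317 in Co-QNZ, against 1107 with QNZ alone. Rps12 had 179 in Co-con, against 711 in CON, and 157 in Co-QNZ, against 738 with QNZ alone. Its coculture difference was -2.23 in the pair with QNZ and -1.99 in that without. Rps19, the gene most often mutated in human Diamond-Blackfan anaemia, had 74.5 in Co-con, against 257 in CON, and 69.2 in Co-QNZ, against 221 with QNZ alone. Rps6, the substrate of the S6 kinases downstream of mTORC1, had 461 in Co-con, against 1282 in CON, and 414 in Co-QNZ, against 1347 with QNZ alone. Its differences, of -1.47 and -1.70, were near the middle of the family.

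In the large subunit, Rplp1 and Rplp0 of the stalk that recruits translation factors had the highest FPKM in CON, while Rplp2 was near the median of the family. Rplp1 had the highest FPKM of all genes in CON, at 6920, and 1467 in Co-con, and it had 1300 in Co-QNZ, against 6413 with QNZ alone. Rplp0, the base of the stalk and a common reference gene in quantitative PCR, had 952 in Co-con, against 3116 in CON, and 978 in Co-QNZ, against 2953 with QNZ alone. Rplp2, the partner of Rplp1, had 189 in Co-con, against 617 in CON, and 177 in Co-QNZ, against 610 with QNZ alone. The difference of Rplp1 was -2.24 without QNZ, while Rplp0 and Rplp2 had -1.71 and -1.70. Rplp1 (ENSMUSG00000007892) is at 61913284 to 61914542 on chromosome 9 (mm10, minus strand).

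Rpl41, the smallest protein of the ribosome, had an FPKM of 504 in Co-con, against 2558 in CON, and 451 in Co-QNZ, against 1637 with QNZ alone. Its coculture difference was -2.34 without QNZ and -1.86 with it, the largest gap between the pairs among the members. Rpl18 had 108 in Co-con, against 461 in CON, and 96.3 in Co-QNZ, against 361 with QNZ alone. Rpl5 and Rpl11 bind the 5S rRNA, and outside the ribosome they inhibit Mdm2, which degrades p53. Rpl5 had 185 in Co-con, against 489 in CON, and 171 in Co-QNZ, against 473 with QNZ alone. Rpl11 had 125 in Co-con, against 453 in CON, and 103 in Co-QNZ, against 335 with QNZ alone. Although these proteins enter the ribosome together, the difference of Rpl11 was -1.85 without QNZ and that of Rpl5 was -1.40.

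Rpl3, which reaches towards the peptidyl transferase centre, had an FPKM of 321 in Co-con, against 817 in CON, and 287 in Co-QNZ, against 616 with QNZ alone. Rpl10, which joins late and completes the large subunit, had 287 in Co-con, against 681 in CON, and 267 in Co-QNZ, against 645 with QNZ alone. Rpl38, needed in mouse for the translation of some Hox mRNAs, had 216 in Co-con, against 672 in CON, and 181 in Co-QNZ, against 529 with QNZ alone. Differences of these genes without QNZ were -1.35, -1.24 and -1.63, all short of the largest of the subunit.

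The smallest differences were mostly in large-subunit genes. Rpl4, a protein of the exit tunnel, had an FPKM of 601 in Co-con, against 1028 in CON, and 584 in Co-QNZ, against 1045 with QNZ alone. Its read ratio without QNZ was 0.584 (0.573 to 0.595), far from that of Rps27l. Rpl4 (ENSMUSG00000032399) is at 64173375 to 64178666 on chromosome 9 (mm10, plus strand). With 17925 reads it came after Rplp0 with 23481 and Rps2 with 18573 as the next member by reads in Co-con. Rpl23, at the interface of the subunits, had 264 in Co-con, against 504 in CON, and 251 in Co-QNZ, against 533 with QNZ alone. Rpl6 had 203 in Co-con, against 455 in CON, and 183 in Co-QNZ, against 526 with QNZ alone. Rpl28 had 254 in Co-con, against 576 in CON, and 239 in Co-QNZ, against 547 with QNZ alone, and Rpl37 had 147 in Co-con, against 306 in CON, and 123 in Co-QNZ, against 283 with QNZ alone. Both were counted in either pair, and Rpl37 had the counted difference nearest to the size of 1 without QNZ, at -1.05. Rps10 had an FPKM of 1.60 in Co-con, against 2.25 in CON, and 1.68 in Co-QNZ, against 2.52 with QNZ alone. It had 55 reads in Co-con and 80 in CON, and its ratio of 0.712 (0.496 to 1.02) was the only one whose interval reached 1. At this depth no difference of Rps10 could be detected without QNZ.

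Paralogues were expressed at low levels beside their main forms, with the exception of Rps27l. Rpl22l1, which can replace Rpl22, had an FPKM of 8.52 in Co-con, against 17.98 in CON, and 5.50 in Co-QNZ, against 16.7 with QNZ alone. Rpl22 itself had 84.4 in Co-con, against 204 in CON, and 69.8 in Co-QNZ, against 179 with QNZ alone. The difference of Rpl22l1 was -0.996 without QNZ, just short of the size that was counted, and -1.44 with it. Rpl7l1, a relative of Rpl7, had 27.4 in Co-con, against 63.2 in CON, and 32.5 in Co-QNZ, against 57.3 with QNZ alone. Rpl7 had 256 in Co-con, against 662 in CON, and 221 in Co-QNZ, against 631 with QNZ alone. Rpl7l1 had the highest difference with QNZ in coculture, at 0.24, which was not counted.

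Rpl39l, known for its use in male germ cells, had an FPKM of 12.9 in Co-con, against 48.0 in CON, and 11.6 in Co-QNZ, against 37.0 with QNZ alone. Rpl39, an exit tunnel protein, had 95.2 in Co-con, against 384 in CON, and 79.3 in Co-QNZ, against 286 with QNZ alone. The main form and the paralogue therefore had like differences, of -2.00 and -1.81 without QNZ. Rpl10l, known from testis, had no read in any library, which allows up to between 0.190 and 0.228 CPM (reads scaled to a common library total). Rpl3l, the form of striated muscle, had 3 reads in Co-con and none in the other libraries.

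Levels in the table were not equal across the family. The FPKM of measured members in CON ranged from 2.25 in Rps10 to 6920 in Rplp1, although their proteins are used in nearly equal numbers. Members below 100 in CON were Rpl7l1, Rpl35, Rpl21, Rpl39l, Rpl30, Rpl23a, Rpl22l1, Rpl13a and Rps10. Rpl24 had 4 reads in Co-con, 3 in CON, 5 in Co-QNZ and 1 with QNZ alone. Rpl13a, used as a reference gene and known as part of an inhibitor of translation in human cells, had an FPKM of 5.95 in Co-con, against 14.9 in CON, and 6.19 in Co-QNZ, against 12.9 with QNZ alone. Rpl23a, at the tunnel exit, had 18.7 in Co-con, against 32.9 in CON, and 18.04 in Co-QNZ, against 37.6 with QNZ alone. Ribosomal protein genes have many processed pseudogenes, and reads that fit both may be lost or divided. In GENCODE M21, 55 of the 80 measured members had a pseudogene that held at least 90% of their coding sequence at an identity of at least 98%, among them Rpl21 with 15 and Rpl7a with 10. Of the 9 low members 5 had such a copy, and Rpl13a and Rps10 had none. No source used here says how the authors counted reads that map to several places, so the level of a single member is uncertain. Of the 25 measured members without such a copy, 23 were lower in Co-con than in CON, with a median of -1.81, and 21 with QNZ, with -1.64. Annotated genes on the other strand overlapped 23 of the 83 members, and 5 were overlapped on their own strand. Whether counting used strand is not known, and of the 54 measured members overlapped by no gene other than small RNAs, 52 were lower without QNZ.

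Gene length moved with the coculture difference over all genes, and most members were short. Their median length in the table was 1806 bases, from 383 to 6270, against 4484 bases over all measured genes. With all measured genes in 10 groups of like number by length, 39 members fell in the shortest, up to 1773 bases. There the members had a median of -1.68 without QNZ and 37 of 39 were lower, and the other 1095 genes had a median of -0.68 with 37.6% lower. In the next group, up to 2511 bases, 13 of 16 members were lower, with a median of -1.52, against -0.31 and 22.1% for the other genes. In the third group, from 2512 to 3137 bases, all 11 members were lower, with a median of -1.74, against -0.07 and 15.3% for the other genes. In the fifth group, from 3785 to 4484 bases, all 4 members were lower, with a median of -1.89, where the median of the other genes was 0.26. The longest members, Rps15a and Rps24, had differences of -1.50 and -1.65, while the medians of other genes of their length groups were 0.68 and 0.56. Across the 80 members, length and difference had a rank correlation of 0.05, GC content one of -0.11 and mean level one of -0.22. With the length trend of the other genes removed, 52 members were lower and none was higher, at a median of -1.20, where 11.3% of all measured genes were lower. With length and GC content removed 50 were lower, with -1.15, where 11.2% of all were. With QNZ these counts were 54 and 47, where 6.65% and 6.88% of all were lower.

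**Figure D3:**
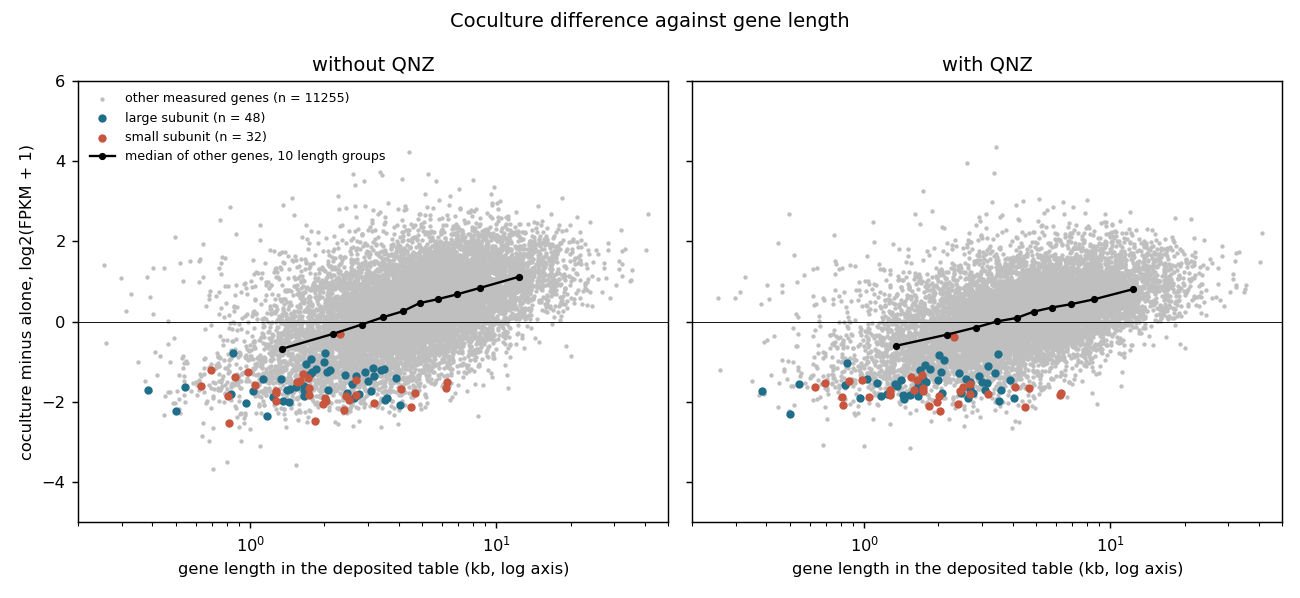
Coculture difference against gene length (log axis) without QNZ on the left and with QNZ on the right, with ribosomal protein genes in colour, other measured genes in grey and a black line through the medians of the other genes in 10 length groups. Without QNZ the median of the members lies below the line in each of the 8 length groups that hold any, and 13 genes of each panel fall outside the axes.

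QNZ alone went with much smaller differences. In fibroblasts alone, none of the 80 members was counted as lower or higher with QNZ, where 1.49% of all measured genes were lower and 1.11% higher. The median over the members was -0.19, against 0.19 over all measured genes, and 68 members were below 0. With median-of-ratios scaling all 80 were below 0, and as TPM 48 were. In coculture none was counted in either direction, where 0.759% of all were lower and 0.309% higher, and the median was -0.17, against 0.05, with 75 below 0. The counting interval lay below 1 for 61 members and above 1 for 9 in fibroblasts alone, and below 1 for 69 and above 1 for 2 in coculture. As a share of reads the family held 9.85% with QNZ and 11.4% without in fibroblasts alone, a ratio of 0.867 (0.865 to 0.869). In coculture it held 3.10% with QNZ and 3.45% without, a ratio of 0.898 (0.895 to 0.902). The spread between cultures is not known.

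**Figure D4:**
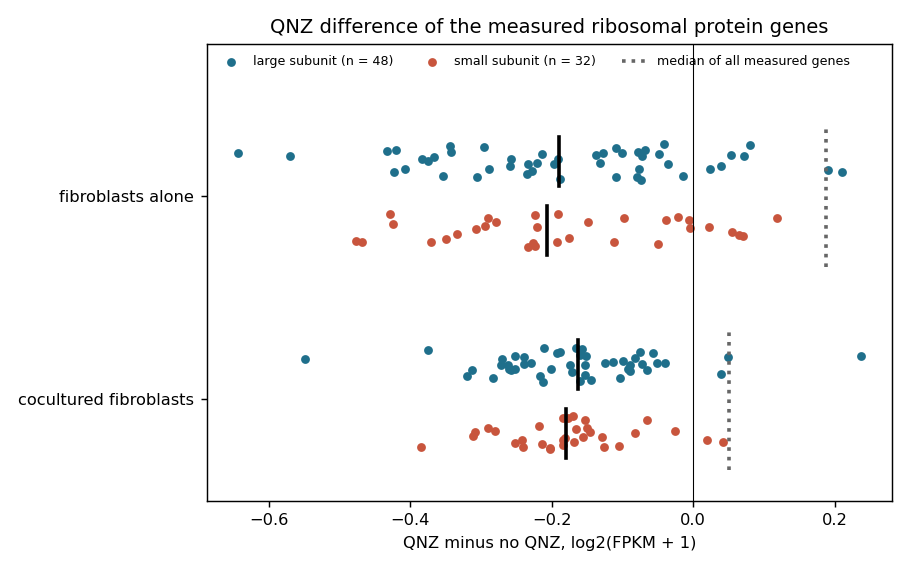
Difference in log2(FPKM + 1) with QNZ against without, in fibroblasts alone (top) and cocultured fibroblasts (bottom), for 48 large-subunit and 32 small-subunit genes, with black bars at their medians and a dotted line at the median of all measured genes. Height within a row carries no value, and the medians of the subunits lie left of the dotted lines, at -0.19 and -0.21 in fibroblasts alone and at -0.16 and -0.18 in coculture.

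Single members had unlike differences with QNZ, some of them further apart than the counting error. In fibroblasts alone Rpl41 had the lowest difference, at -0.64, followed by Rpl37a with -0.57 and Rps9 with -0.48. Rpl37a had an FPKM of 277 with QNZ alone, against 412 in CON, and 101 in Co-QNZ, against 125 in Co-con. Rps9 had 686 with QNZ alone, against 955 in CON, and 221 in Co-QNZ, against 244 in Co-con. Where the highest FPKM of a member was 5 or more, Rpl6, Rpl23a and Rpl23 were at the other end, with 0.21, 0.19 and 0.080. In coculture Rpl22l1 was the lowest, at -0.55, followed by Rps27 with -0.38 and Rpl36a with -0.37. Rpl36a had 78.0 in Co-QNZ, against 101 in Co-con, and 258 with QNZ alone, against 308 in CON. With the same minimum, the highest were Rpl7l1, Rpl13a and Rplp0, with 0.24, 0.049 and 0.039. The counting interval of the read ratio of Rpl13a, from 0.841 to 1.29, held 1. The coculture difference without QNZ minus that with QNZ had a median of 0.0031 over the members, and 0 of 80 members reached a size of 1, where 1.90% of all measured genes did. The range was from -0.49 in Rpl41 to 0.45 in Rpl22l1.

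Other genes of translation differed in both directions in coculture, and their counts moved with the scaling. For comparison, 11.0% of all measured genes were lower and 24.0% higher as deposited, 5.70% and 46.5% as TPM, and 20.7% and 13.03% with median-of-ratios scaling. Rack1, a scaffold on the small subunit, had an FPKM of 185 in Co-con, against 648 in CON, and Fau, a fusion of a ubiquitin-like protein with a ribosomal protein, had 460, against 1289. Of 77 measured mitochondrial ribosomal protein genes, which serve translation in the mitochondrion, 45 were lower and none was higher, and their median was -1.17. As TPM 29 were lower and 2 higher, with -0.74, and with median-of-ratios scaling 66 were lower, with -1.68. Mrpl14, Mrpl12, Mrps6 and Mrpl20 had the largest differences, from -2.33 to -2.25. Of 13 elongation and termination genes 4 were lower and 2 higher, with a median of -0.74, which was -0.22 as TPM and -1.27 with median-of-ratios scaling. Eef1b2, a subunit of the exchange factor of elongation, had 146 in Co-con, against 562 in CON, and the related subunits Eef1d and Eef1g had differences of -1.95 and -1.69. Eif5a, which helps ribosomes past stalls, had 167 in Co-con, against 628 in CON.

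Of 36 initiation factor genes 15 were lower and 5 higher, with a median of -0.67, and as TPM 2 were lower and 7 higher, with -0.21. Eif3i and Eif3b, subunits of the largest initiation factor, had differences of -1.72 and -1.52, whereas the helicase Eif4a2 and the scaffold Eif4g3 had 1.85 and 1.83. Of 17 other genes with TOP mRNAs, a list that shares members with those above, 8 were lower and none was higher, at a median of -0.92. As TPM 4 of these were lower, with -0.49, and with the length trend removed 5 were. Of 48 genes of ribosome biogenesis 13 were lower and 3 higher, with a median of -0.45. As TPM 9 of this list were higher and 7 lower, and the median was 0.025, where the median of all measured genes was 0.90. With median-of-ratios scaling 21 were lower and 2 higher, with -0.95. With the length trend removed 14 were lower and 1 higher, with -0.65. Nhp2, a protein of snoRNPs, had 21.6 in Co-con, against 113 in CON, and Rrp9, Bop1 and Mrto4 had differences of -2.04, -1.84 and -1.82. Of 14 genes of RNA polymerase I, which makes the large rRNA precursor, 3 were lower and none was higher. The median was 0.047. As TPM 4 were higher and none was lower, with 0.55, whereas median-of-ratios scaling gave a median of -0.43. Polr1d, Znrd1 and Polr1c were the lower ones, with -1.38, -1.24 and -1.14.

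Genes known to act on the family were on either side of the median of all measured genes, 0.35. Of 17 measured genes of the mTORC1 route 2 were higher and 2 lower, and the median was 0.32. It was -0.18 with median-of-ratios scaling and -0.32 with the length trend removed, and as TPM it was 0.84, with 7 higher and none lower. Larp1, the TOP binding protein, had an FPKM of 44.2 in Co-con, against 21.7 in CON, a difference of 0.99 that was not counted. Tsc1, an inhibitor of mTORC1, was counted as higher, with an FPKM of 5.91 in Co-con, against 2.002 in CON, and Lamtor1, of its anchor on the lysosome, as lower, with -1.09. Of 7 measured genes of the MYC network 2 were higher and none lower, where 24.0% of all measured genes were higher. These were Mxi1 and Mnt, antagonists of MYC, with 1.59 and 1.34. Mxd1 and Mxd4 of the same network had 0.94 and -0.39. Myc itself had 46.4 in Co-con, against 31.6 in CON, a difference of 0.54. As TPM 4 of the 7 were higher, with a median of 1.06, and with median-of-ratios scaling 1 was, with 0.021. With the length trend removed none was higher and 1 was lower. Of 13 genes for factors that meet the nascent chain at the ribosome 5 were lower and none was higher, at a median of -0.62. As TPM 2 were higher and 2 lower, with -0.12. Among the genes lower as deposited were the channel subunits Sec61g and Sec61b with -2.28 and -2.17. Of 12 measured mitochondrially encoded genes 7 were higher and 1 was lower, and the median was 1.14. With median-of-ratios scaling 2 were higher and 2 lower, with 0.75, and as TPM 10 were higher and none was lower, with 1.797. With QNZ the medians in coculture against alone were -1.08 for mitochondrial ribosomal proteins, -0.70 for elongation, -0.67 for initiation, -0.44 for ribosome biogenesis and 0.84 for mitochondrially encoded genes.

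**Figure D5:**
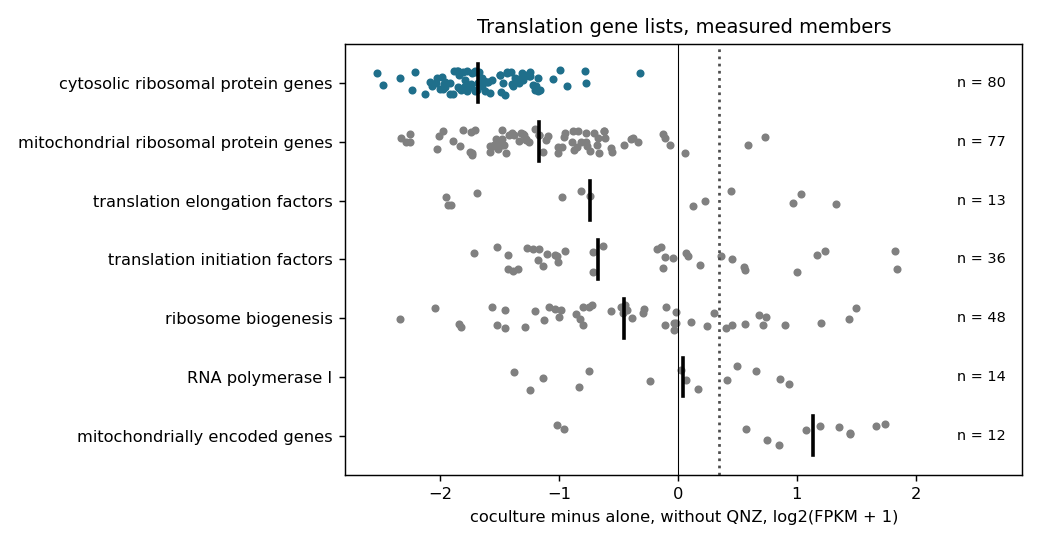
Coculture difference in log2(FPKM + 1) without QNZ, with MSCs minus without, for the measured genes of 7 lists, with 1 point per gene, a black bar at each median and a dotted line at the median of all measured genes, 0.35. The cytosolic ribosomal protein genes are the lowest list, with a median of -1.68, followed by the mitochondrial ones with -1.17.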

How the data were processed

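RNA of 4 fibroblast cultures was sequenced by the authors, mapped to mm10 with STAR 2.5.4b and given FPKM credited to Cuffnorm of Cufflinks 2.2.1. The authors deposited read counts with no normalization and FPKM per gene. The deposited FPKM equal the count divided by gene length and by the column total in all 21862 gene IDs, within a relative tolerance of 1e-06. Which program counted reads is not stated. Values of 23 symbols with several IDs were summed, none of them members.

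The pseudocount was 1. Median-of-ratios scaling used genes with a read in all 4 libraries. Trends with length and GC content (longest GENCODE M21 transcript) were fitted by lowess with a span of 0.3, in 3 rounds for both together, over measured genes other than the members. Pseudogene copies were found with BLAST. With 1 library per condition no count model was fitted.

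Named genes were the 8 largest and 8 smallest coculture differences at an FPKM of at least 5, the 3 largest and smallest of each other comparison, paralogues, members with a known separate role, members counted in the direction opposite to their median (there were none), and up to 4 genes of each other list. Genes named for their level, reads, pseudogene copies or length were chosen after their values were seen. Members and lists were chosen with earlier results of these data known. The counting of changed genes and the removal of the length trend were tried on simulated reads. There the differences were centred on the unchanged genes, and changed genes were counted from slightly below 1. Other steps were not tested on simulated data. Software was statsmodels 0.14.6, scipy 1.17.1, pandas 2.3.3, numpy 2.4.6, matplotlib 3.10.9 and Python 3.11.15. Some single genes are not reported here, although they enter the counts and medians.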

Additional observations from a re-analysis of the deposited data

Results flagged for a closer look

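In each of 9 members given here QNZ went with a difference of one sign in fibroblasts alone and of the other sign in coculture, with both counting intervals off a ratio of 1. The difference between the settings was not tested, since each has 1 library with and 1 without QNZ. Rpl6 had a log2 difference of 0.21 in fibroblasts alone and -0.15 in coculture. Rpl7a had 0.072 and -0.19, Rps6 had 0.071 and -0.15, Rps12 had 0.055 and -0.18, and Rpl27 had 0.053 and -0.15. Rpl23 had 0.080 and -0.073, and Rpl4 had 0.024 and -0.040. Rpl7l1 and Rplp0 went the other way, with -0.14 and 0.24, and with -0.077 and 0.039. None of these values reached the size of 1. The sign depends on the scaling. With median-of-ratios scaling all 80 measured members were below 0 with QNZ in fibroblasts alone, so that the 7 members above 0 as deposited no longer differed in sign in this way, and as TPM 48 were below 0.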

How the results depend on the processing

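No member was counted as higher in any of the 4 comparisons under any alternative run. In coculture against alone without QNZ the median over members was -2.21 with median-of-ratios scaling, -1.16 as TPM, -1.20 with the length trend removed, and -1.15 with length and GC content removed. At a size of 2, 11 members were lower, where 1.10% of all measured genes were. With QNZ these medians were -1.91, -1.27, -1.19 and -1.16, and 7 members were lower at a size of 2 (0.529% of all) and 47 with length and GC content removed. The median over all measured genes without QNZ was 0.35 from FPKM, 0.90 from TPM and -0.070 after median-of-ratios scaling, and relative to it the members lay at -2.03, -2.06 and -2.14. With QNZ against none in fibroblasts alone the members' median was -0.070 as TPM and -0.49 with median-of-ratios scaling, and 2 members were lower at a size of 0.5. In coculture 1 was lower at that size. Among members without a pseudogene copy, a choice made after the data were seen, 23 of 25 were lower without QNZ, with a median of -1.81, and 21 with QNZ. Of the 55 members with a copy, 52 were lower without QNZ and 55 with it. Single members changed sign in 4 cases, Rps10 as TPM (0.024), Rpl23a with the length trend (0.21) or with length and GC content removed (0.22), and Rps29 with length and GC content removed (0.022). For these the cause was not tested. Without mitochondrially encoded genes the share of reads was 3.48% in Co-con, 11.4% in CON, 3.15% in Co-QNZ and 9.91% with QNZ alone, and as summed TPM it was 8.20%, 19.3%, 7.29% and 18.2%. All other alternatives moved the members' medians by at most 0.1 and their counts by at most 1.5 times. This does not cover the other gene lists, whose values as TPM stand beside them. With median-of-ratios scaling 19 of the 36 initiation factor genes were lower and 2 higher without QNZ, with a median of -1.15. Of the 17 other TOP genes 12 were lower, with -1.35, and of the 13 nascent chain genes 8 were, with -1.15. No paired analysis was possible because each condition had 1 library.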
